A study of Mus musculus with 2 samples.

Results

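The LIF, gp130 and STAT3 pathway was followed through 8 genes, the ligand Lif, the receptor chains Lifr, Il6st, Il11ra1 and Osmr, the kinase Jak1, the transcription factor Stat3 and the inhibitor Socs3. They were chosen by name, as were the gene lists below, with earlier results of these data known. All 8 were among the 14678 genes of the deposited table. Uteri were taken at G2.5, gestation day 2.5, from mice of the strain VEGFtetO/tetO/beta-AKtg/wt. In these mice tet operators sit in the VEGF promoter of both alleles, and a tetR-Krab repressor is made from a β-actin transgene, which is meant to be active in all tissues. The Dox+ females ate doxycycline chow, which takes the repressor off the promoter, and are labelled VEGF-normal. The Dox− females were littermates of the same genotype on regular chow since shortly after weaning, and are labelled VEGF-repression. Both groups were mated with VEGFtetO/tetO males, carried the targeted alleles and the transgene and were adult. They differed in the chow, so that doxycycline itself and VEGF repression cannot be told apart. The study also reports that ovulation was lower in Dox− females. Total RNA of 3 uteri per group was pooled and sequenced as 1 library by digital gene expression (DGE) profiling, which counts sequence tags per gene as a copy number. With 1 library per group no difference has a replicate check, and no test between the conditions was possible.

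LIF (leukemia inhibitory factor) is a secreted cytokine of the uterine glands, and female mice without it cannot support implantation. It binds the receptor chain LIFR, which pairs with gp130, the shared chain encoded by Il6st, and the receptor-bound kinase JAK1 then phosphorylates STAT3. STAT3 moves to the nucleus and switches on target genes, among them Socs3, whose protein shuts the receptor off again. The uterine epithelium is the tissue in which LIF is known to activate STAT3 before the embryo attaches.

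The LIF receptor chain Lifr, the gp130 gene Il6st and the feedback inhibitor Socs3 were higher in Dox−, while the ligand was close to the lower limit of the libraries, and Il11ra1, Jak1 and Stat3 differed by less than 1.5-fold. Lifr was 2.14-fold higher in Dox−, Il6st 1.89-fold and Socs3 1.66-fold. These 3 genes were past a 1.5-fold difference, out of 6 with at least 200 copies in both libraries together, and none of the 6 was past it in the other direction. Of all 6547 genes with at least 200 combined copies, 29.9% were past this fold, 15.2% higher and 14.7% lower. On the log2 scale the ratio of Dox− to Dox+ had a median of 0.49 over the 6 genes and of 0.03 over all 6547. The intervals given with each ratio are exact (Clopper-Pearson, 95%), treat the tags of a gene as independent, and cover no error other than that of counting. The exact test of edgeR, with a coefficient of variation of 0.1 between pools assumed, was then added to the fold. Lifr, Il6st and Socs3 stayed past both the fold and an FDR of 0.05, as did 26.2% of the 6547 genes. With 0.2 assumed none of the 6 genes stayed past both, against 4.9% of the 6547, and with 0.4 again none, against 0.504%. The true variation between pools is not known. At a fold of at least 2, Lifr alone was higher, beside 4.61% of all genes, and with at least 500 combined copies Il6st alone was, beside 13.6%.

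The libraries held 5985925 clean tags in Dox+ and 5844314 in Dox−, of which 74.1% and 72.2% were counted in genes. Vegfa, the repressed gene, had 41.3 TPM (copies per 1000000 clean tags) in Dox+ and 21.4 in Dox−, 1.93-fold lower in Dox− (95% interval 1.55 to 2.41). Since whole uteri were measured, more cells that express a gene and more RNA per cell cannot be told apart. Markers of 8 tissue components were therefore summed. The 8 epithelial markers added up to 972 TPM in Dox+ and 1510 in Dox−, with Krt19 and Ltf having the most copies. Without Ltf, an estrogen-induced secretory gene left out after its values were seen, the other 7 added up to 821 and 1060 TPM. Of all 8, 6 were higher and 2 lower in Dox−, Cldn4 with 149 and 65 copies and Foxa2 with 35 and 34. The 7 leukocyte markers, led by Csf1r and Lyz2, added up to 81.9 TPM in Dox+ and 121 in Dox−. Of these, 6 were higher in Dox−, among them Ptprc with 49 and 130 copies, while Csf1r had 186 and 181. Smooth muscle markers, led by Tagln and Myh11, added up to 4970 TPM in Dox+ and 3460 in Dox−, stroma markers, led by Lum and Vim, to 1640 and 1260, and endothelial markers, led by Cdh5 and Pecam1, to 149 and 103. The stroma markers went both ways, 2 of 6 being higher in Dox−, among them Lum with 259 and 476 TPM, and 4 lower, among them Hoxa10 with 521 and 181 and Hand2 with 165 and 24.5. Of the 5 endothelial markers 2 were higher and 3 lower. Cldn4, Foxa2, Ptprc, Hoxa10 and Hand2 are named because their values were seen. The 4 adipocyte markers, led by Cfd and Fabp4, added up to 245 and 192 TPM. For red blood cells 2 of 3 listed genes were in the table, Hba-a1 and Alas2, with 7.85 and 21.0 TPM in all, and Ovgp1 of the oviduct had 4.18 and 0.342 TPM. None of the markers in the table was at 0 in either library. The part of such shifts in the results below was not tested.

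Socs3 is the member that STAT3 itself is known to drive, and its promoter is shown for the STAT motif it holds. The sequence is RefSeq's, on build GRCm38.p6, chr11:117969317-117969616, minus strand, from 250 bases before to 50 bases after the start of transcription, with the motif, TTC and GAA with any 3 bases between them, in capitals. It was searched on both strands and is its own reverse complement.
Socs3: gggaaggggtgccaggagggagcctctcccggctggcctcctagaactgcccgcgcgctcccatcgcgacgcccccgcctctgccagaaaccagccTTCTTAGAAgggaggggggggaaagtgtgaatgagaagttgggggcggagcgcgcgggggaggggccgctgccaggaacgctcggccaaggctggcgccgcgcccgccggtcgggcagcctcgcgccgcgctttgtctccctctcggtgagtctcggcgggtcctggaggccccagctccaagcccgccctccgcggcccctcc
The motif lies 154 bases before the start. It was found in the promoters of 1 of the 8 members. Counted by gene in the same way, 9.55% of the 27025 genes with a promoter of this length in the RefSeq table held it. Counted by promoter, the share was 8.3% of all 32851. With 8 members, 1 match cannot be told apart from these shares. The match is to letters alone and does not show that a factor binds there. Among the general STAT3 targets, 17 of 20 had a promoter in the table and 2 of these held the motif, Bcl6 and Icam1. Their motifs are printed with 10 bases on either side, because the copies of these genes differed in opposite directions.
Bcl6: agcaaattagTTCTCAGAAttccagaggc
Icam1: ggcgcgaggtTTCCCGGAAagtggccccg
Bcl6 (promoter chr16:23988803-23989102, minus strand) encodes a transcriptional repressor and had 49 copies in Dox+ and 108 in Dox−. Icam1 (promoter chr9:21015690-21015989, plus strand) encodes an adhesion molecule and had 99 and 54 copies. A further start site of Bcl6 held 3 motifs.

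Lif (gene ID 16878, NCBIM37 chromosome 11, 4157560 to 4172517, plus strand, 4 exons) had 8 copies in Dox+ and 9 in Dox−, or 1.34 and 1.54 TPM. The ligand was thus barely detected in both libraries, and in Dox+ 11.9% of the detected genes had fewer copies. Its log2 ratio of 0.20 has an interval from -1.34 to 1.78, so that these counts do not exclude a 2-fold difference in either direction.

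Lifr (gene ID 16880, chromosome 15, 7079559 to 7147489, plus strand, 20 exons), the receptor chain that binds LIF, had 117 copies in Dox+ and 244 in Dox−, or 19.5 TPM (95% interval 16.2 to 23.4) and 41.7 TPM (36.7 to 47.3). The intervals of the libraries do not overlap. Its log2 ratio of 1.09 (0.77 to 1.43) was the largest of the 8 and the single value among them past 2-fold.

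Il6st (gene ID 16195, chromosome 13, 113265216 to 113297068, plus strand, 15 exons) encodes gp130, through which LIF, interleukin 6, interleukin 11, oncostatin M and other cytokines signal. It had 569 copies in Dox+ and 1050 in Dox−, or 95.1 TPM (87.4 to 103) and 180 TPM (169 to 191). With these copies its ratio has the narrowest interval of the 3 past the fold, 1.89-fold with an interval from 1.71 to 2.10. The intervals of Lifr and Il6st overlap, and the counts do not settle which of them differed more.

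Osmr (gene ID 18414, chromosome 15, 6763577 to 6824313, minus strand, 18 exons), the chain that pairs with gp130 to bind oncostatin M, had 28 copies in Dox+ and 49 in Dox−, or 4.68 and 8.38 TPM. Its ratio of 1.79 lay near those of Lifr and Il6st, but with 77 combined copies it was below the minimum of 200, and its interval reached from 1.10 to 2.96. When genes with at least 20 combined copies were taken, Osmr was past the fold as well, beside 19.7% of all such genes in this direction, and the same held with no filter, beside 19.5%.

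Il11ra1 (gene ID 16157, chromosome 4, 41647021 to 41716347, plus strand), the chain that binds interleukin 11, had 395 copies in Dox+ and 443 in Dox−, or 66.0 and 75.8 TPM. The 1.15-fold difference has an interval that begins at an equal share and ends at 1.32, below the intervals of Lifr and Il6st. Near-identical copies of this gene exist in the mouse genome, among them Il11ra2, which was not in the table under this symbol. Tags that match several genes were not counted. Its annotated range also overlaps other genes on both strands, and its value is therefore less certain than that of the other chains.

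**Figure D1:**
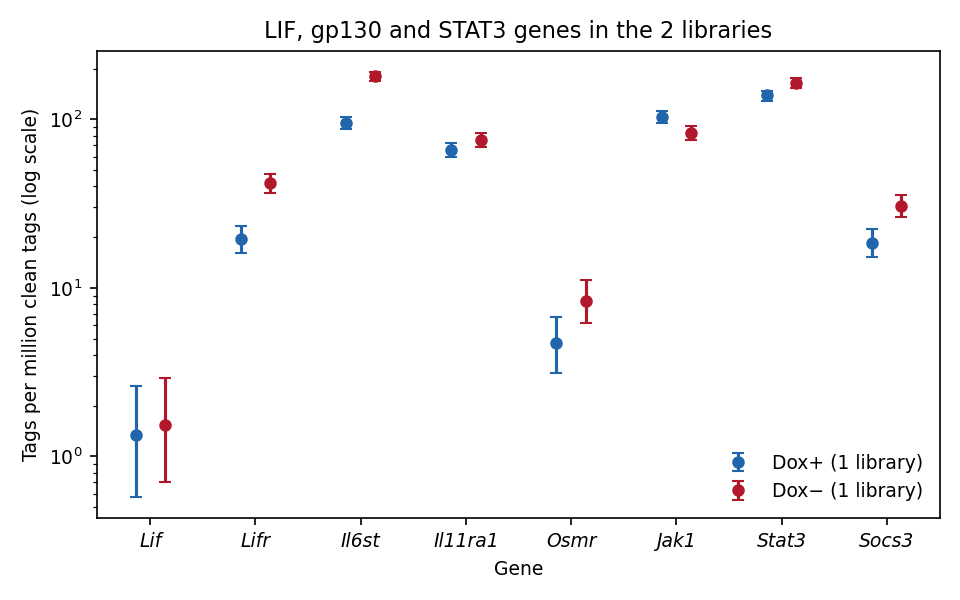
Level in TPM, copies per 1000000 clean tags (vertical axis, log scale) of the 8 genes in the Dox+ library (blue) and the Dox− library (red), with exact 95% intervals of the counting error as bars. The bars of Lifr, Il6st, Socs3 and Stat3 lie apart, with Dox− higher, and those of Jak1 lie apart with Dox− lower. Those of Lif cover nearly the same range at 1.34 and 1.54 TPM.

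Jak1 (gene ID 16451, chromosome 4, 100824972 to 100937887, minus strand, 25 exons), a tyrosine kinase bound to the tails of gp130 and its partners, had 617 copies in Dox+ and 485 in Dox−, or 103 and 83.0 TPM. It was the single member that was lower in Dox−, 1.24-fold with an interval from 1.10 to 1.40. The counting intervals of the libraries do not overlap, but the difference is below 1.5-fold.

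Stat3 (gene ID 20848, chromosome 11, 100746412 to 100800854, minus strand, 24 exons), the transcription factor that LIF activates in the uterus, had 830 copies in Dox+ and 962 in Dox−, or 139 and 165 TPM. It was 1.19-fold higher in Dox−, with an interval from 1.08 to 1.30 that ends below 1.5-fold. Its annotated range overlaps that of Stat5a on the other strand by 72 bases. Phosphorylation, by which STAT3 is activated, is not measured by tags.

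Socs3 (gene ID 12702, chromosome 11, 117827393 to 117831361, minus strand, 2 exons) had 111 copies in Dox+ and 180 in Dox−, or 18.5 TPM (15.3 to 22.3) and 30.8 TPM (26.5 to 35.6). The product binds gp130 and JAK kinases and stops the signal. The 1.66-fold difference has an interval from 1.30 to 2.12, which includes values below 1.5, and it overlaps those of Lifr and Il6st.

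**Figure D2:**
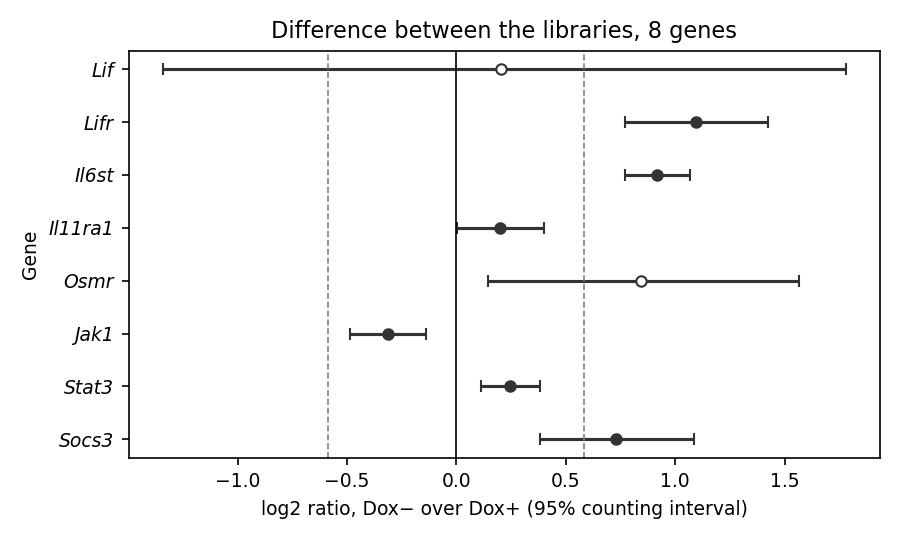
The log2 ratio of each gene, Dox− over Dox+ (horizontal axis), with its 95% counting interval. Filled points have at least 200 combined copies, open points fewer, the solid line marks an equal share of both libraries and the dashed lines a 1.5-fold difference. Lifr, Il6st, Socs3 and, with few copies, Osmr lie to the right of the upper dashed line, and Jak1 is the one point left of the solid line.

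The order of the genes was taken from TPM per kilobase of the longest annotated transcript, since genes of unequal length cannot be compared by tags where mRNA was fragmented. On this scale Il11ra1 had the highest level in Dox+, 25.3 TPM per kilobase, followed by Stat3 with 22.9, Jak1 with 21.0 and Il6st with 18.3. Each neighbour in this group overlaps the next within counting error. Socs3 with 7.27 and Lifr with 2.02 stood apart below them, and Osmr with 0.967 and Lif with 0.332 overlapped at the bottom. In Dox−, Il6st stood first with a level of 34.5 TPM per kilobase, apart from Il11ra1 with 29.1 and Stat3 with 27.2, which overlap. Jak1 with 16.9, Socs3 with 12.1, Lifr with 4.32, Osmr with 1.73 and Lif with 0.383 followed, each apart from the next. Il6st thus stood in the fourth place in Dox+ and in the first in Dox−, while the lower 4 genes had the same places in both. This order holds only if tags scale with transcript length, which was not resolved. By TPM without length, Stat3 with 139, Jak1 with 103, Il6st with 95.1 and Il11ra1 with 66.0 led in Dox+, and Il6st with 180, Stat3 with 165, Jak1 with 83.0 and Il11ra1 with 75.8 in Dox−. Il6st then stood in the third place and in the first, where its interval overlaps that of Stat3, and Lifr stood above Socs3 in both libraries, with overlapping intervals in Dox+.

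In addition to the 8 genes, 78 genes of the pathway in 7 lists were looked up, and 67 of them were in the table. Of the 36 with at least 200 combined copies, 8 were past 1.5-fold and higher in Dox−, 22.2%, and 6 were lower, 16.7%, beside 15.2% and 14.7% of all genes. Their median log2 ratio of 0.10 was near the 0.03 of all genes. The lists differed from each other more than this sum shows.

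Of 11 other cytokine genes that signal through gp130, 5 were in the table, and Ctf1 alone had at least 200 combined copies. Ctf1, which encodes cardiotrophin 1, had 195 copies in Dox+ and 101 in Dox−, 1.89-fold lower in Dox− (1.47 to 2.42). Ebi3 had 6 and 8 copies and Il11, the ligand of the Il11ra1 chain, had 3 and 4. Ctf2 had 3 copies or fewer in both libraries. Il6, Osm, Cntf, Clcf1, Il27 and Il31 were not in the table under these symbols. The other receptor chains had few copies. Il6ra, the receptor of interleukin 6, had 15 copies in each library, Il27ra 7 and 6, and Cntfr 0 and 3, and none of these had enough copies for a comparison.

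Of 9 other genes of kinases and STAT factors, 5 had at least 200 combined copies, and these stayed within 1.5-fold, with a median log2 ratio of -0.15. Of all genes with as many copies, 29.9% were past this fold. Tyk2, a kinase gene with fewer copies, 65 and 41, was 1.55-fold lower in Dox− (1.03 to 2.35), and is named because its values were seen. Jak2, a further kinase of cytokine receptors, had 816 and 798 copies, an equal share of both libraries with an interval of the ratio from 0.907 to 1.11. Stat6, which interleukin 4 activates, had 366 copies in Dox+ and 323 in Dox−.

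Among 15 further inhibitors, 8 had at least 200 combined copies, with a median log2 ratio of 0.22. Past the fold, 2 were higher and 2 lower, 25% each, beside 15.2% and 14.7% of all genes. Socs2, an inhibitor of growth hormone signaling, had 202 copies in Dox+ and 315 in Dox−, 1.60-fold higher (1.33 to 1.92). Ptpn2, a phosphatase of JAK1 and of STAT factors, had 96 and 172 copies, 1.84-fold higher (1.42 to 2.38). On the lower side, Socs7 had 508 and 217 copies, 2.29-fold lower in Dox− (1.95 to 2.69), and Pias3, whose protein binds STAT3 and blocks its action, had 183 and 97 copies, 1.84-fold lower (1.43 to 2.38). Ptpn11, a phosphatase that links gp130 to the ERK pathway, had 451 and 557 copies, 1.26-fold higher. Socs1, the closest relative of Socs3, had 33 and 87 copies, 2.70-fold higher (1.79 to 4.16), but with 120 combined copies it was below the minimum, and it is named here because its values were seen. Genes of the SOCS family thus differed in both directions, Socs1, Socs2 and Socs3 being higher and Socs7 lower in Dox−.

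Of 11 adaptors and kinases through which gp130 reaches the ERK pathway, 10 were in the table and 8 had enough copies. None of the 8 was past the fold, beside 29.9% of all genes, and their median log2 ratio was 0.16. Map2k2, which encodes the ERK kinase MEK2, had the most copies, 1628 and 1189, and Mapk3, a gene of the ERK family, had 582 and 789. The other 2 genes, named after their values were seen, differed in opposite directions with fewer copies. Sos1, an activator of RAS, had 64 and 115 copies, 1.84-fold higher in Dox− (1.34 to 2.54), and Gab1, a docking protein, had 104 and 54, 1.88-fold lower (1.34 to 2.66).

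**Figure D3:**
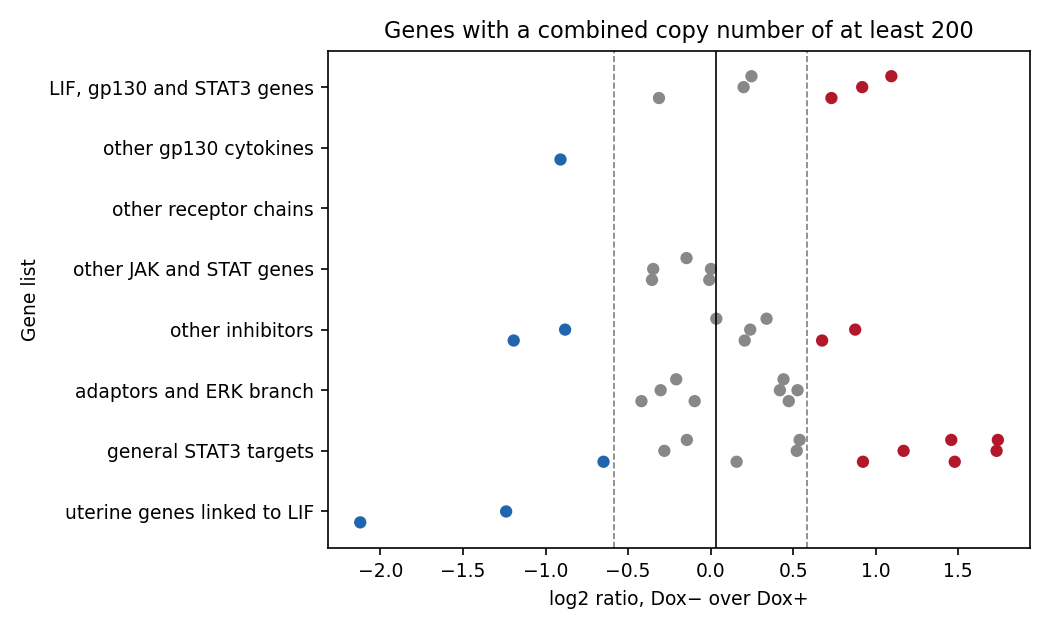
The log2 ratio, Dox− over Dox+ (horizontal axis), of the genes with at least 200 combined copies in each list (rows), 1 point per gene. Red points are at least 1.5-fold higher and blue points at least 1.5-fold lower in Dox−, grey points lie between, the solid line is the median of all 6547 genes and the dashed lines mark 1.5-fold. General STAT3 targets reach furthest to the right, both uterine genes linked to LIF lie to the left, and no other receptor chain had enough copies to be drawn.

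Of the general targets of STAT3, 15 of 20 had a higher value in Dox− and 5 a lower one, beside 7039 and 6688 of all 14678 genes. These are genes that STAT3 is known to drive in many cell types, though other factors drive them too. Of the 20, 12 had at least 200 combined copies, and of these 6 were higher past the fold and 1 was lower, 50% and 8.33%, beside 15.2% and 14.7% of all genes. The median log2 ratio of the 12 was 0.73. Bcl3, a partner of NF-κB, had 107 copies in Dox+ and 349 in Dox−, 3.34-fold higher (2.68 to 4.19). Klf4, a zinc finger factor of epithelia, had 86 and 279 copies, 3.32-fold higher (2.60 to 4.28). Il4ra, the receptor chain of interleukin 4, had 201 and 547 copies, 2.79-fold higher, and Cebpb, a factor that decidualization requires, had 258 and 692, 2.75-fold higher.

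Birc5, the inhibitor of apoptosis survivin and a gene of mitosis, had 184 and 404 copies, 2.25-fold higher in Dox−. Junb, an AP-1 factor, had 121 and 224 copies, 1.90-fold higher. Bcl2l1, which encodes the survival protein BCL-XL, was on the other side, with 289 and 180 copies, 1.57-fold lower (1.30 to 1.90). Of the targets with the most copies, Hif1a had 987 and 1075 and Ccnd1 912 and 806. Mcl1, a further survival gene, had 556 and 789 copies, 1.45-fold higher with an interval from 1.30 to 1.62 that includes 1.5. Bcl3, Klf4, Il4ra and Cebpb remained called with a coefficient of variation of 0.2 between pools assumed in edgeR, and Birc5, Junb and Bcl2l1 did not.

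The 8 targets below 200 combined copies included 6 that were higher past the fold and 1 lower, and are named because their values were seen. Of all 8131 genes with so few copies, 23.1% were past the fold and higher and 23% lower. Pim1, a kinase gene that cytokines induce, had 6 and 42 copies, 7.17-fold higher with a wide interval from 3.03 to 20.6. Fos, an immediate early AP-1 gene, had 25 and 116 copies, 4.75-fold higher (3.06 to 7.64). Batf had 36 and 99 copies, Ier3 53 and 135, Cdkn1a 38 and 69, and Bcl6 stood as given above. Icam1 was lower, and Timp1 had 101 and 83 copies.

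The uterine genes linked to LIF were lower in Dox− where they could be compared. The list does not give the direction in which LIF acts on each gene, and the output of LIF was not tested. Of 7 listed genes 5 were in the table, and both genes with at least 200 combined copies were lower past the fold, beside 14.7% of all genes. Igfbp3, a binding protein of insulin-like growth factors, had 602 copies in Dox+ and 135 in Dox−, 4.35-fold lower (3.61 to 5.29). Msx1, a homeobox gene of the uterus before attachment, had 1757 and 727 copies, 2.36-fold lower (2.16 to 2.58). Hbegf, an EGF-family ligand made around the attaching blastocyst, had 40 and 44 copies.

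Areg and Irg1, named after their values were seen, were without a tag in Dox−. Areg, which encodes the ligand amphiregulin and responds to progesterone, had 31 copies in Dox+. It was 10.1-fold lower in Dox− with the absent tags set to 3 copies, while the exact interval of the split of 31 and 0 begins at 7.73-fold. Irg1, an epithelial gene that also responds to progesterone, had 37 copies in Dox+. It was 12.0-fold lower on the same floor, equal to 0.513 TPM, with an interval that begins at 9.31-fold. Coch and Ereg were not in the table under these symbols.

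**Figure D4:**
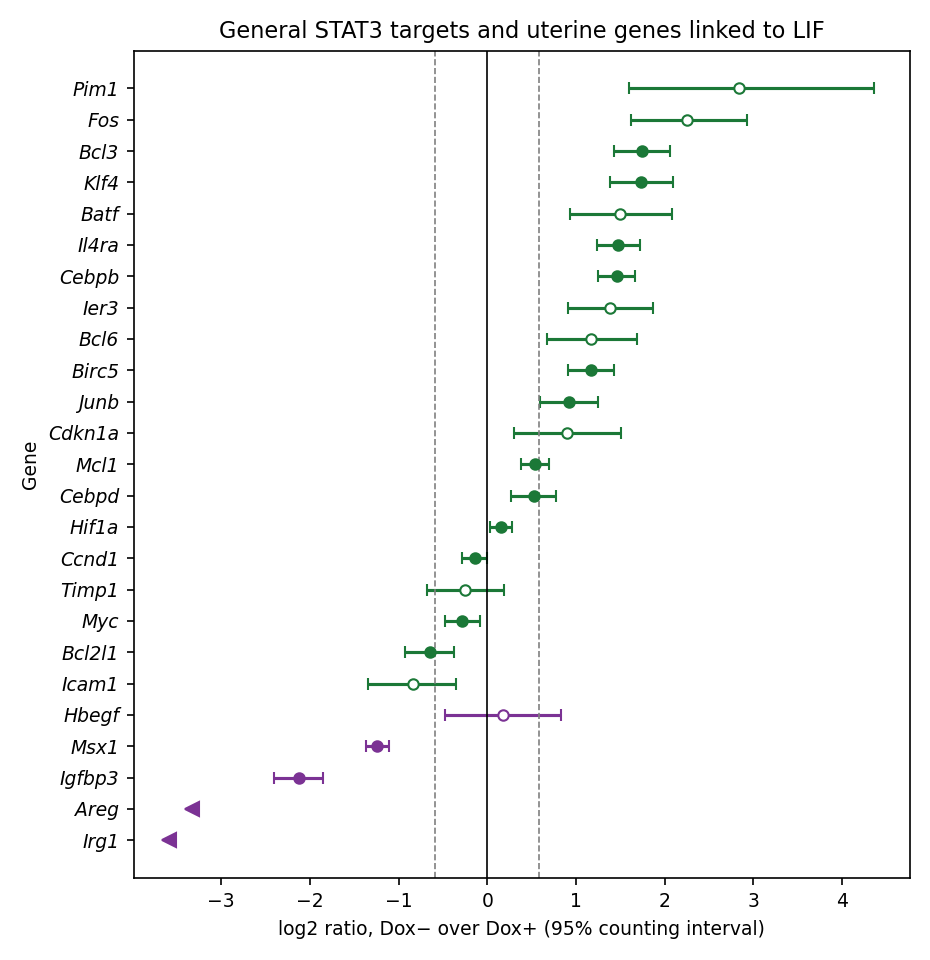
The log2 ratio, Dox− over Dox+ (horizontal axis), of the general STAT3 targets (green) and the uterine genes linked to LIF (purple), with 95% counting intervals. Open points have fewer than 200 combined copies, triangles are bounds for genes without a tag in Dox−, and the dashed lines mark 1.5-fold. Pim1, with 6 and 42 copies, lies furthest right with the widest bar, and Areg and Irg1 lie furthest left.

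The GO column of the deposited table gives lists that were not written by hand, and they were added after the values were seen. It assigns 11 genes to tyrosine phosphorylation of Stat3 protein, Lif and Il6st among them. Of its 7 genes with enough copies Il6st alone was past the fold, 14.3%, beside 15.2% of all genes that were higher. The median log2 ratio of the 7 was 0.14. The wider term of cytokine-mediated signaling, which includes Lifr and Stat3, had 38 genes with enough copies and a median of -0.14. Past the fold, 3 of them were higher and 5 lower, 7.89% and 13.2%, beside 15.2% and 14.7% of all genes. The JAK-STAT cascade held 3 genes in this column, with 1 lower, Ptk2b, which had 557 and 200 copies.

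Beside these values stand those of the epithelial and leukocyte markers, which were also higher in Dox− in sum, though not gene by gene. The 8 epithelial markers had a summed ratio of 1.56, or 1.30 without Ltf, and the 7 leukocyte markers one of 1.48. Of the 8 epithelial markers 2 were lower in Dox−, and of the 7 leukocyte markers 1. Epcam was 1.80-fold and Ptprc, with 179 combined copies, 2.72-fold higher in Dox−, and Cldn4 was 2.24-fold lower. Epcam, Ptprc and Cldn4 are named because their values were seen. Lifr was 2.14-fold, Il6st 1.89-fold and Socs3 1.66-fold higher. The part of a shift in cell types in these differences was not tested.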

How the data were processed

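Total RNA of 3 pooled uteri per condition at G2.5 gave 1 Dox+ and 1 Dox− library. Before deposit, empty adaptors, poor sequences and single-copy tags had been dropped by the authors, who aligned the rest to mouse reference transcripts (mm9), and they deposited the count of unambiguous tags per gene. The deposited TPM is the copy number per 1000000 clean tags, by the authors, without a length correction and with 0.01 at no tag. CASAVA is named in the submitters' processing notes. The aligner, the tag enzyme and whether antisense tags are in the counts are not given in the sources used here. The labels mention mRNA fragmentation, the study's methods DGE tags, and this was not resolved. The authors' ratios, P-values and FDR were not used.

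Clean tags per library were recovered from copy number and TPM, which a single whole number fits for every gene. Ratios are shares of clean tags, without a pseudocount, with 3 copies as the floor for lower counts. A gene counted as past the fold at 200 or more copies in both libraries together and a fold of 1.5. Alternatives were other filters, scalings and folds, a pseudocount of 1 TPM, the Audic-Claverie test, which compares those libraries and not the conditions, and an edgeR exact test in which the coefficient of variation was assumed to be 0.1, 0.2 or 0.4. The named genes are the 8 members and, of each list, those past the fold, the 3 with the most copies and genes with 3 copies or fewer in both libraries. Some genes that this rule names are not reported here. Of each marker list the 2 genes with the most copies are named. Members and lists were chosen with earlier results of these data known. No genes of like pattern were sought, since 2 libraries give 1 ratio per gene.

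Gene positions and lengths are from GENCODE on NCBIM37, the assembly UCSC calls mm9, where all 8 members matched, and promoters are from RefSeq on GRCm38.p6, where all 8 matched. Methods were tested on simulated data. Software was edgeR 4.0.16 (under R 4.3.3) and, under Python 3.11.15, pandas 2.3.3, scipy 1.17.1, matplotlib 3.10.9 and numpy 2.4.6.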

Additional observations from a re-analysis of the deposited data

How the results depend on the processing

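The log2 ratios of the 8 genes moved within their counting intervals under 4 alternatives, counted tags as library size, TMM factors, the median of ratios and a pseudocount of 1 TPM, and none changed direction. Lifr ranged from 1.06 to 1.13, Il6st from 0.88 to 0.96, Socs3 from 0.70 to 0.77, Stat3 from 0.21 to 0.29 and Jak1 from -0.35 to -0.27. Of the 6 genes with at least 200 combined copies, 3 were higher past 1.5-fold, beside 15.2% of all such genes. Osmr joined them with at least 20 combined copies and with no filter, beside 19.7% and 19.5% of all genes. Il6st alone stayed with at least 500 combined copies, beside 13.6%, and Lifr alone with a fold of at least 2, beside 4.61%. With edgeR, none of the 6 stayed at an assumed coefficient of variation of 0.2 or 0.4, beside 2.25% and 0.244% of all such genes that were higher. For the 7 other pathway lists together, 8 genes of 36 were higher and 6 lower, beside 15.2% and 14.7% of all genes. With at least 20 combined copies they were 17 and 11 of 59, beside 19.7% and 18.7%. With no filter they were 17 and 11 of 67, beside 19.5% and 19.3%. With at least 500 copies they were 4 and 3 of 22, beside 13.6% and 13.8%. With a fold of at least 2 they were 5 and 3 of 36, beside 4.61% and 5.62%. They became 4 and 1 with an assumed coefficient of variation of 0.2, beside 2.25% and 2.66%. With 0.4 they became 0 and 0, beside 0.244% and 0.26%. Fewer genes are tested with a stricter filter, and more with a looser one. The Audic-Claverie FDR changed no count, and each scaling kept these counts within 1.5 times. No paired analysis was possible because each condition has 1 library. No library can be left out for the same reason. Depth limits Lif and Osmr, with 17 and 77 combined copies.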
